A study of Mus musculus with 8 samples.

Results

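The 10 genes described here belong to the triggering receptor (TREM), Siglec, CD300 and paired immunoglobulin-like receptor families of myeloid cells or encode their adaptor, and were followed in mouse bone marrow-derived macrophages (BMDM) treated with bilirubin, a product of heme breakdown. The genes were *Trem1*, *Trem2*, *Trem3*, *Tyrobp*, *Siglec1*, *Siglece*, *Cd300a*, *Cd300ld*, *Cd300lf* and *Pilra*, which were chosen by symbol and make up 10 of the 53819 gene rows in the count table. Marrow came from 4 separate 8-week-old female Balb/CJ mice and was grown into macrophages over 5 days in 25 ng/mL of the colony-stimulating factor M-CSF. One culture of each mouse then received 2.5 µM bilirubin for 48 h and the other received DMSO vehicle, which gave 4 vehicle and 4 bilirubin libraries of mRNA. All mice were of 1 inbred strain, with no modified allele named in the labels, and these cells were grown in M-CSF rather than taken from a tissue. Libraries are numbered by mouse.

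Macrophages carry activating and inhibitory receptors of the immunoglobulin superfamily side by side. Activating members such as TREM-1 and TREM-2 have short tails and signal through a partner, mostly DAP12, the product of *Tyrobp*, whose immunoreceptor tyrosine-based activation motif (ITAM) is phosphorylated by Src family kinases and recruits the kinase SYK. Inhibitory members such as Siglec-E, CD300A and PILRα carry an immunoreceptor tyrosine-based inhibitory motif (ITIM) in their own tail and recruit the phosphatases SHP-1 and SHP-2. In macrophages the group is known for sensing sialic acid, lipids and lipoproteins, and for the handling of dying cells. For the contrast below, *Trem1*, *Trem2*, *Trem3* and *Cd300ld* were counted as activating and *Siglece*, *Cd300a*, *Cd300lf* and *Pilra* as inhibitory. CD300LF has been described in both roles, and Siglec-1, a sialic acid-binding adhesion receptor, was put in neither class.

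The classes were set from what is known of the receptors, so the coding sequence describes them and does not test them. It is shown for the motifs that define them, in the coding transcript with the most reads, or in the reference transcript for *Tyrobp*. That transcript was listed at 0 TPM in all libraries, and 94.2 to 95.3% of the gene's TPM was on another coding transcript, whose annotated coding sequence is incomplete. Positions are those of GRCm39, sequences are read 5′ to 3′ on the coding strand, and capitals mark the tyrosine codons. The *Tyrobp* motif (chr7:30115095-30116807, plus strand) is split by an intron of 1668 bases, and the others each lie within an exon. The ITIMs are at chr7:43301009-43301026 (minus strand) in *Siglece*, at chr11:114790672-114790689 and chr11:114791973-114791990 (plus strand) in *Cd300a*, at chr11:115008474-115008491 and chr11:115007938-115007955 (minus strand) in *Cd300lf*, and at chr5:137821833-137821850 (minus strand) in *Pilra*.
*Tyrobp* ITAM: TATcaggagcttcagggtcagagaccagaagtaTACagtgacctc
*Siglece* ITIM: atacatTATgcgaccctc
*Cd300a* ITIM, first: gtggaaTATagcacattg
*Cd300a* ITIM, second: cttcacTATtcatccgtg
*Cd300lf* ITIM, first: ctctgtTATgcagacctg
*Cd300lf* ITIM, second: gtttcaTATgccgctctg
*Pilra* ITIM: atcgtgTATgcttccatc

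Among the 10 genes, an ITAM was found after the membrane segment of *Tyrobp* alone, and an ITIM after that of *Siglece*, *Cd300a*, *Cd300lf* and *Pilra* alone. These matches are descriptions: the last 100 codons hold an ITAM in 0.501% and an ITIM in 16.7% of 20778 coding genes. The tails after the membrane segment were 5 codons long in *Trem1*, 25 in *Trem3*, 35 in *Trem2* and 22 in *Cd300ld*, against 85 in *Pilra*, 93 in *Siglece*, 114 in *Cd300a* and 123 in *Cd300lf*. A lysine codon, the kind of charged residue through which such receptors are known to hold DAP12, lay within the membrane segment of *Trem1*, *Trem2* and *Trem3*. *Cd300ld* had none there, and its protein is known to pair with the Fc receptor gamma chain, encoded by *Fcer1g*. *Trem1*, *Trem3* and *Trem2* lie in that order on chromosome 17, with 835 bases between the first pair and 87552 between the second. *Cd300a*, *Cd300ld* and *Cd300lf* lie in 1 stretch of chromosome 11, 77618 and 126291 bases apart.

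Libraries held between 34142781 and 47071714 counts on genes, and all 10 genes had enough counts to be tested among 13722 genes in all. Levels are in CPM, the count relative to the size of its library after TMM scaling, and every log2 fold change is bilirubin over vehicle. Tests used edgeR's quasi-likelihood model, in which treatment and the mouse of origin were terms, and p-values were adjusted over the 13722 genes (Benjamini-Hochberg), with 0.05 as the threshold. This threshold was passed by 1033 genes, 616 higher and 417 lower. A list of 10 macrophage markers, among them *Adgre1*, *Cd68*, *Csf1r*, *Itgam*, *Mertk*, *Fcgr1*, *Lyz2*, *Cd14* and *C1qa*, was detected in full, with a summed level of 24600 to 24900 CPM in vehicle and 29000 to 31100 CPM in bilirubin libraries, and 4 of the 10 rose (*Adgre1*, *Itgam*, *Lyz2*, *Cd14*). Fewer cells of a kind and less RNA per cell cannot be told apart in such bulk libraries.

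With bilirubin, 4 of the 10 genes passed, which is 40.0% against 7.53% of all tested genes. *Pilra*, *Siglece* and *Trem3* rose, as did 4.49% of all genes, and *Cd300a* fell, as did 3.04%. The other 6 genes did not pass, although 9 of the 10 had an unadjusted p under 0.05, against 20.8% of all genes, and 6 of those 9 were lower. The 3 genes that rose were low ones, whereas the abundant *Trem2* and *Tyrobp* moved little. The median log2 fold change was -0.11 over the 10 genes and -0.002 over all genes.

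**Figure D1:**
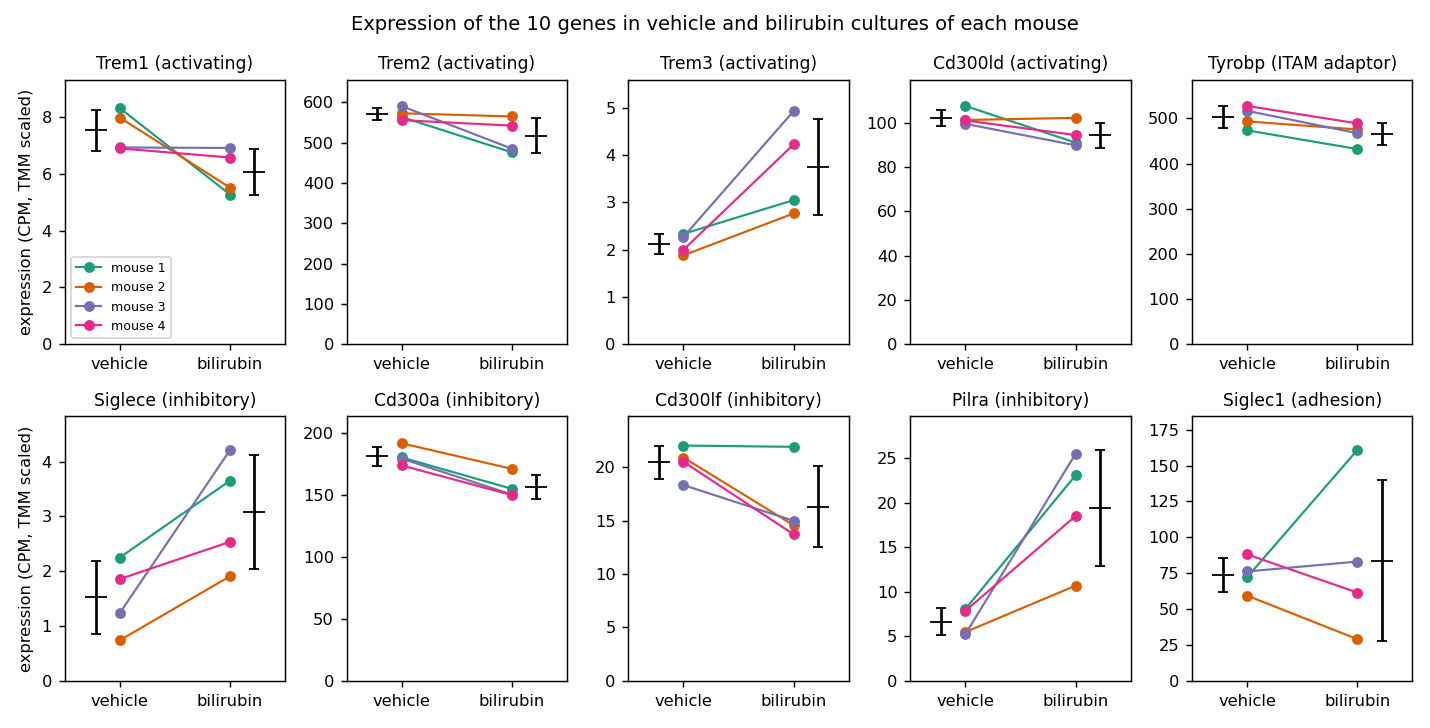
Expression in CPM (vertical axes, from 0, each gene on its own scale) in the vehicle and bilirubin library of each mouse, joined by a line, with the group mean and SD (n = 4) as black bars. The bilirubin libraries lie above all vehicle libraries for *Pilra* and *Trem3* and below them for *Cd300a*, and *Siglec1* runs in both directions.

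Per length, the levels in vehicle libraries spanned a wide range, and the classes were interleaved. In TPM, which relates a transcript's reads to its length and its library, *Tyrobp* stood first in the vehicle libraries with 1830 ± 67.1 TPM (SD, n = 4), followed by *Trem2* with 908 ± 25.5 TPM. *Cd300a* (74.1 ± 3.71 TPM) and *Cd300ld* (64.4 ± 2.84 TPM) came next. *Cd300lf* (20.3 ± 1.08 TPM) and *Siglec1* (18.9 ± 3.14 TPM) overlapped in range and did not differ beyond their spread. *Pilra* (7.81 ± 1.39 TPM) was above *Trem1* (4.27 ± 0.294 TPM) and *Trem3* (4.0 ± 0.435 TPM), which overlapped with each other, and *Siglece* was last with 1.56 ± 0.792 TPM. Other neighbours in this order had ranges that did not overlap. With bilirubin *Pilra* reached 19.5 ± 7.61 TPM, in the range of *Cd300lf* (16.3 ± 3.34 TPM), and *Trem3* (6.83 ± 1.79 TPM) stood above *Trem1* (3.44 ± 0.304 TPM).

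**Figure D2:**
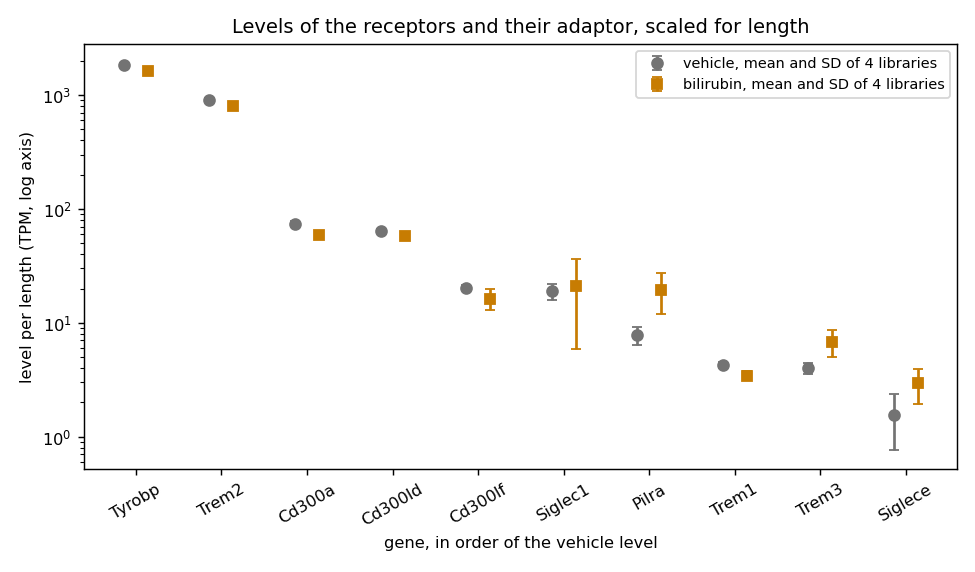
Level per length in TPM (logarithmic vertical axis) of each gene, in order of its vehicle level, as mean and SD of 4 libraries with vehicle (circles) and bilirubin (squares). *Tyrobp* and *Trem2* stand far above the other genes in both groups, and *Pilra*, *Trem3* and *Siglece* are the genes whose bilirubin mean lies well above the vehicle mean.

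*Pilra* (ENSMUSG00000046245, chromosome 5, 137820214 to 137834543) encodes PILRα, an inhibitory receptor that binds sialylated glycoproteins. Its level in vehicle libraries was 8.06, 5.48, 5.23 and 7.85 CPM in mice 1 to 4, and 23.1, 10.7, 25.5 and 18.5 CPM in the bilirubin libraries of the same mice. Every bilirubin library was above every vehicle library, a pattern seen in 10.6% of all tested genes in either direction, and the smallest increase was in mouse 2. The mean went from 6.66 ± 1.51 to 19.4 ± 6.52 CPM (SD, n = 4), a 2.85-fold rise with a log2 fold change of 1.51 (SE 0.18, adjusted p = 0.00187, edgeR quasi-likelihood test). This was the largest change among the 10 genes and the only one of the 10 that passed in all 13 alternative settings. The coding transcript whose ITIM is shown above went from 3.04 ± 0.503 to 8.98 ± 2.77 TPM with ranges that did not overlap. A transcript with a retained intron took 33.4 to 53.7% of the gene's TPM with vehicle and 28 to 37.1% with bilirubin.

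*Pilrb1* and *Pilrb2* encode the activating counterparts of PILRα, which have tails of 8 codons and a lysine codon in the membrane segment. Both rose from low counts. *Pilrb1* was at 0.273, 0.185, 0.413 and 1.15 CPM with vehicle and 2.45, 1.36, 3.14 and 3.06 CPM with bilirubin (log2 fold change 2.47, SE 0.33, adjusted p = 0.00299). *Pilrb2* was at 0.715, 0.689, 0.802 and 0.894 CPM with vehicle and 3.71, 1.86, 2.87 and 3.16 CPM with bilirubin (log2 fold change 1.88, SE 0.21, adjusted p = 0.00148). For both genes all bilirubin libraries were above all vehicle libraries, on 7 to 126 and 26 to 129 counts. Per length, *Pilra* was 2.93 ± 1.01 times the sum of both with vehicle and 1.69 ± 0.357 times with bilirubin, and this ratio was lower with bilirubin in all 4 mice (mean log2 change -0.76 ± 0.34, SD). The exact two-sided permutation test within mice gave p = 0.125, the smallest that 4 pairs allow, and 0.438 adjusted over 7 ratios. The 3 genes share sequence: of the 31-base words in *Pilra* transcripts, 8.4% also occur in *Pilrb1* and 7.2% in *Pilrb2*, and *Pilrb1* and *Pilrb2* share 42.8% of theirs. The split of reads between *Pilrb1* and *Pilrb2* is therefore uncertain.

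*Trem1* (ENSMUSG00000042265, chromosome 17, 48539784 to 48553952) encodes an amplifier of inflammatory signals in myeloid cells. Its level was 8.31, 7.97, 6.92 and 6.89 CPM with vehicle and 5.27, 5.51, 6.91 and 6.57 CPM with bilirubin. It was lower by over 0.5 on the log2 scale in mice 1 and 2 and nearly level in mice 3 and 4, and the groups overlapped narrowly. The change did not pass, with a log2 fold change of -0.31 (SE 0.13, adjusted p = 0.225, edgeR quasi-likelihood test), and it passed in 0 of the 13 alternative settings.

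*Trem3* (ENSMUSG00000041754, chromosome 17, 48554788 to 48565876), the neighbour of *Trem1*, encodes another receptor that signals through DAP12. It was at 2.34, 1.88, 2.27 and 2.00 CPM with vehicle and 3.05, 2.77, 4.94 and 4.23 CPM with bilirubin. All bilirubin libraries were above all vehicle libraries, and mice 3 and 4 increased more than mice 1 and 2. On the log2 scale the fold change was 0.79 (SE 0.18, adjusted p = 0.0319), on 71 to 198 counts a library. The call was lost when mouse 2 (adjusted p = 0.0757), mouse 3 (0.211) or mouse 4 (0.177) was left out and with an offset for transcript length (0.0781). Per length, *Trem3* was 0.938 ± 0.0942 times *Trem1* with vehicle and 1.97 ± 0.366 times with bilirubin, higher in all 4 mice (mean log2 change 1.06 ± 0.15, SD), again with p = 0.125 in the exact permutation test (0.438 adjusted over 7 ratios). *Trem1* and *Trem3* share 0 of their 31-base words, so that a read of that length could match only one of them.

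*Trem2* (ENSMUSG00000023992, chromosome 17, 48653429 to 48661175) encodes a receptor for lipids and apolipoproteins, known for its part in lipid handling and uptake. It was at 564, 573, 591 and 556 CPM with vehicle and 476, 565, 485 and 543 CPM with bilirubin. Mice 1 and 3 were lower with bilirubin, mice 2 and 4 were almost level, and the groups overlapped. The log2 fold change was -0.15 (SE 0.05, adjusted p = 0.145), and it passed in 1 of the 13 alternative settings, the one without a filter on low counts. A pair of coding transcripts made up most of its reads in steady shares, the reference transcript with 67.3 to 69.9% of the TPM in vehicle and 68.2 to 71.0% in bilirubin libraries and the other with 26.2 to 30.5% and 26.8 to 28.3%.

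*Tyrobp* (ENSMUSG00000030579, chromosome 7, 30113170 to 30117010) encodes the DAP12 adaptor itself. Its level was 474, 493, 517 and 528 CPM with vehicle and 432, 476, 467 and 489 CPM with bilirubin. It was lower in each of the 4 mice by a small amount, as 28.3% of all genes moved 1 way in all mice, and the groups overlapped. The log2 fold change was -0.11 (SE 0.03, adjusted p = 0.0851) and did not pass, although it did in 2 of the 13 alternative settings, with libraries scaled by their size alone (adjusted p = 0.0377) and without a filter on low counts (0.0434). *Trem2* relative to *Tyrobp* per length was 0.497 ± 0.0255 with vehicle and 0.483 ± 0.0314 with bilirubin, with no common direction among the mice.

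*Siglece* (ENSMUSG00000030474, chromosome 7, 43298405 to 43309607) encodes Siglec-E, an ITIM receptor that binds sialic acid. It was the lowest of the 10 genes, at 2.25, 0.742, 1.24 and 1.86 CPM with vehicle and 3.65, 1.91, 4.21 and 2.54 CPM with bilirubin. It was higher in each of the 4 mice, but the groups overlapped, since the bilirubin library of mouse 2 was below the vehicle library of mouse 1. The log2 fold change was 1.04 (SE 0.24, adjusted p = 0.0381), on 28 to 169 counts a library. The call depended on the pairing of cultures by mouse: without the mouse as a block the adjusted p was 0.131. It was also lost without mouse 2 (0.137), mouse 3 (0.204) or mouse 4 (0.0538) and with an offset for transcript length (0.0834).

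*Siglec1* (ENSMUSG00000027322, chromosome 2, 130911140 to 130928685) encodes Siglec-1, also called sialoadhesin or CD169, and is known as an interferon-inducible gene. It was at 72.2, 59.4, 76.2 and 88.1 CPM with vehicle and 161, 29.1, 83.1 and 61.5 CPM with bilirubin. The bilirubin libraries ran from the lowest to the highest value of all 8, and the cultures of mice 1 and 2 moved in opposite directions by more than 1 on the log2 scale (1.15 and -1.03), with 0.12 in mouse 3 and -0.52 in mouse 4. The mean log2 fold change was -0.04 (SE 0.29, adjusted p = 0.965), and its sign depended on the libraries included. A list of 12 type I interferon genes, chosen after the data had been seen, also differed between the mice, with median log2 changes of 1.56, -0.29, 0.43 and 0.51 in mice 1 to 4. Its summed level was 175, 243, 256 and 251 CPM with vehicle and 491, 206, 342 and 311 CPM with bilirubin, and 0 of the 12 genes passed with edgeR (4 at an unadjusted p under 0.05), and 0 with DESeq2, limma voom or limma-trend. *Siglec1* and the list were both highest in the bilirubin culture of mouse 1, and the part of interferon signalling in the *Siglec1* values was not tested.

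**Figure D3:**
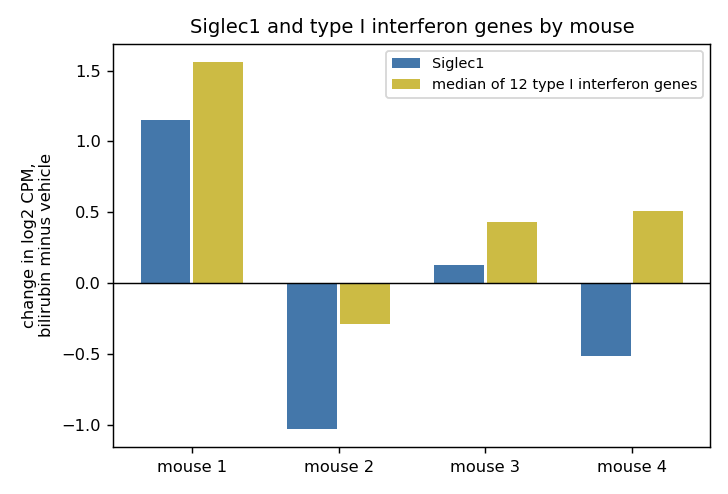
Change in log2 CPM, bilirubin minus vehicle (vertical axis), of *Siglec1* and the median change of 12 type I interferon genes in each mouse (bars). Both are positive in mice 1 and 3 and negative in mouse 2, and they differ in sign in mouse 4.

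*Cd300a* (ENSMUSG00000034652, chromosome 11, 114768840 to 114795480) encodes an inhibitory receptor that binds lipids exposed on dying cells. It was at 181, 192, 180 and 174 CPM with vehicle and 155, 171, 151 and 150 CPM with bilirubin. Every bilirubin library was below every vehicle library, and the decrease was of like size in the 4 mice, from -0.16 to -0.25 on the log2 scale. The decrease had a log2 fold change of -0.21 (SE 0.03, adjusted p = 0.00599). It passed in 11 of 13 alternative settings and was lost without mouse 3 (adjusted p = 0.0675) or mouse 4 (0.0547). The transcript with the first and second ITIM shown above held 71.4 to 77.5% of the gene's TPM with vehicle and 74.1 to 82.1% with bilirubin.

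*Cd300lf* (ENSMUSG00000047798, chromosome 11, 115007040 to 115024818) encodes a receptor with ITIMs that binds lipids. It was at 22, 20.9, 18.3 and 20.5 CPM with vehicle and 21.9, 14.6, 15 and 13.7 CPM with bilirubin. Mice 2, 3 and 4 were lower with bilirubin, and mouse 1 stayed level, so that the groups overlapped. With all mice, the log2 fold change was -0.34 (SE 0.10, adjusted p = 0.0705) and did not pass. Without mouse 1 it did (adjusted p = 0.00115), as it did with DESeq2 (0.0295) and without a filter on low counts (0.00043).

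*Cd300ld* (ENSMUSG00000034641, chromosome 11, 114873099 to 114880748) encodes a CD300 receptor that was counted as activating. It was at 108, 101, 99.6 and 101 CPM with vehicle and 91.1, 102, 89.9 and 94.5 CPM with bilirubin. Mice 1, 3 and 4 were lower and mouse 2 was level, and the groups overlapped. The log2 fold change was -0.12 (SE 0.05, adjusted p = 0.185), and it passed in 0 of the 13 alternative settings. *Cd300lf* relative to *Cd300ld* per length was 0.315 ± 0.0195 with vehicle and 0.284 ± 0.0517 with bilirubin (exact permutation test within mice, p = 0.375, 0.5 adjusted over 7 ratios).

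The contrast of classes gave no common direction on either side. Of the 4 activating receptors 1 passed (*Trem3*, higher), 25.0% against 7.53% of all genes, with a median log2 fold change of -0.13. Of the 4 inhibitory receptors 3 passed, *Pilra* and *Siglece* higher and *Cd300a* lower, 75.0% against 7.53%. The inhibitory median of 0.42 lies between rises in *Pilra* (1.51) and *Siglece* (1.04) and negative values in *Cd300a* (-0.21) and *Cd300lf* (-0.345). The change in *Cd300lf* did not pass. Within each mouse the median log2 change was lower for the activating than for the inhibitory receptors, with -0.24 and 0.34 in mouse 1, -0.003 and 0.40 in mouse 2, -0.08 and 0.74 in mouse 3, and -0.05 and 0.11 in mouse 4. The summed levels did not follow these medians, because *Trem2* made up most of the activating and *Cd300a* most of the inhibitory sum. The activating sum was 9.33, 9.31, 9.74 and 9.45 times the inhibitory sum in TPM with vehicle and 7.18, 10.5, 8.36 and 9.55 times with bilirubin, lower in mice 1 and 3 and higher in mice 2 and 4.

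Among 22 activating relatives, 13 were tested, of which 6 rose and 2 fell, against 4.49% and 3.04% of all genes. This list went beyond the families of the 10 genes. It also held SIRPβ and PIR-A genes and the C-type lectin *Clec5a*. Those that rose were *Treml4*, *Pilrb1*, *Pilrb2* and the SIRPβ genes *Sirpb1a*, *Sirpb1b* and *Sirpb1c*. *Treml4*, a TREM family gene, rose from 17.8 ± 0.852 to 35.7 ± 7.91 CPM (log2 fold change 0.98, SE 0.11, adjusted p = 0.00148). *Sirpb1a* and *Sirpb1c*, activating counterparts of SIRPα, rose with log2 fold changes of 0.75 (SE 0.07, adjusted p = 0.000381) and 0.63 (SE 0.08, adjusted p = 0.00194), while *Sirpa* itself was at 1489 ± 35.3 and 1564 ± 179 CPM and did not pass (adjusted p = 0.532). The split of reads among *Sirpb1a*, *Sirpb1b* and *Sirpb1c* is uncertain. Of the 31-base words of *Sirpb1a*, 50.8% also occur in *Sirpb1c*, as do 69.6% of those of *Sirpb1b*. Rises within the SIRPβ genes, and within *Pilrb1* and *Pilrb2*, are therefore not fully separate results. Both falls were in CD300 genes. *Cd300lb*, whose protein is known to pair with DAP12, went from 290 ± 2.06 to 253 ± 14.1 CPM (log2 fold change -0.20, SE 0.04, adjusted p = 0.0145). *Cd300ld3* went from 59.8 ± 8.98 to 37.2 ± 6.19 CPM (log2 fold change -0.69, SE 0.11, adjusted p = 0.00531), although 80.6% of its 31-base words also occur in *Cd300ld4* and 84.1% in *Cd300ld5*, so that its reads cannot be told apart from theirs with certainty. *Cd300ld5* was at 0 to 70 counts and did not pass (log2 fold change -0.22, SE 1.09, adjusted p = 0.944), and *Cd300ld2* and *Cd300ld4* had too few counts to test.

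Of 12 inhibitory relatives, 10 were tested, 2 rose and the others did not pass, 20.0% against 7.53% of all genes. *Pirb*, which encodes a receptor for MHC class I, rose from 139 ± 6.46 to 181 ± 22.9 CPM (log2 fold change 0.37, SE 0.05, adjusted p = 0.00314). It shares 22.9% of its 31-base words with the activating *Pira2*, so that part of its reads is uncertain. *Lilrb4a*, of the same family, rose from 389 ± 24.7 to 477 ± 27.4 CPM (log2 fold change 0.29, SE 0.04, adjusted p = 0.00265). The median log2 fold change was 0.60 over the tested activating and 0.03 over the tested inhibitory relatives, and the difference between these lists was not tested.

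**Figure D4:**
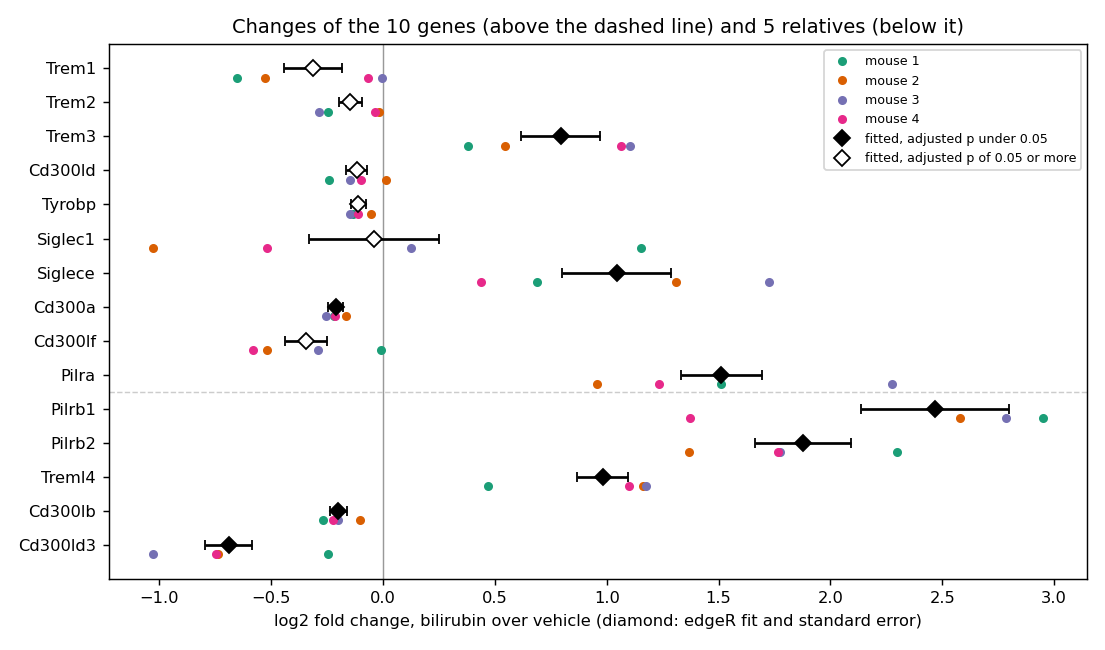
Log2 fold change of bilirubin over vehicle (horizontal axis) from the edgeR fit with its standard error (diamonds, filled where the adjusted p was under 0.05) and the change in each mouse (coloured points below each diamond), for the 10 genes and 5 relatives. *Pilra*, *Pilrb1* and *Pilrb2* lie farthest to the right, the CD300 genes lie at or left of 0, and *Siglec1* is spread to both sides.

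Downstream of these receptors, several kinases rose, and of the 3 adaptors *Tyrobp*, *Fcer1g* and *Hcst* 1 fell. Of 21 genes of ITAM signalling, all tested, 5 rose and 1 fell, 28.6% against 7.53% of all genes. The Src family kinases *Fgr* (5.79 ± 0.921 to 19.2 ± 4.4 CPM, log2 fold change 1.72, SE 0.08, adjusted p = 1.7e-05) and *Src* (8.98 ± 1.1 to 23.6 ± 4.18 CPM, 1.39, SE 0.09, adjusted p = 7.58e-05) both rose. *Syk*, the kinase that binds the phosphorylated ITAM, rose from 353 ± 19.0 to 410 ± 21.6 CPM (log2 fold change 0.22, SE 0.03, adjusted p = 0.00536), a call that was lost without mouse 3 (0.0666) or mouse 4 (0.0586). *Malt1*, which acts below CARD9 on NFκB, rose with a log2 fold change of 0.39 (SE 0.05, adjusted p = 0.00246), but not with an offset for transcript length (adjusted p = 0.161). The other ITAM adaptor, *Fcer1g*, fell from 401 ± 12.5 to 364 ± 13.5 CPM (log2 fold change -0.14, SE 0.03, adjusted p = 0.0274), and this call was lost without the mouse as a block (0.0945), without mouse 2, 3 or 4 (0.109, 0.173 and 0.158) and with the length offset (0.0564). *Hcst*, which encodes the adaptor DAP10, was at 4.39 ± 0.234 and 4.31 ± 0.0804 CPM and did not pass (log2 fold change -0.02, SE 0.12, adjusted p = 0.948).

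On the inhibitory side 1 of 10 genes of ITIM signalling rose and the others did not pass, 10.0% against 7.53% of all genes, which is near that background. This was *Ptpn6*, which encodes SHP-1, with 251 ± 10.1 CPM in vehicle and 290 ± 22.2 CPM in bilirubin libraries (log2 fold change 0.21, SE 0.04, adjusted p = 0.0173). It did not pass without the mouse as a block (0.0658), with the length offset (0.0698), or without mouse 3 (0.142) or mouse 4 (0.0932). *Ptpn11*, which encodes SHP-2, was at 151 ± 2.43 and 154 ± 3.13 CPM (log2 fold change 0.03, SE 0.03, adjusted p = 0.717). *Inpp5d*, which encodes the lipid phosphatase SHIP1, was at 356 ± 16.3 and 330 ± 19.6 CPM (log2 fold change -0.11, SE 0.03, adjusted p = 0.0678), and neither passed.

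Among ligands and sheddases of these receptors, 9 of 11 were tested, 2 rose and 1 fell, 33.3% against 7.53% of all genes. *Adam17*, a protease known to release the ectodomain of TREM-2, rose from 280 ± 10.8 to 372 ± 24.9 CPM (log2 fold change 0.41, SE 0.04, adjusted p = 0.000604). *Adam10*, another such protease, was at 351 ± 8.35 and 332 ± 16.2 CPM and did not pass (adjusted p = 0.208). *Plxna1*, a plexin known to work with TREM-2 and DAP12, rose from 547 ± 23.0 to 695 ± 38.7 CPM (log2 fold change 0.34, SE 0.03, adjusted p = 0.000848). *Apoe*, which encodes a ligand of TREM-2, fell (log2 fold change -0.96, SE 0.06, adjusted p = 0.000102). Of 18 genes that make, transfer, activate or remove sialic acid, the sugar read by the Siglecs and PILRα, 1 rose and the others did not pass, 5.56% against 7.53% of all genes. This was *St3gal1*, a sialyltransferase of O-glycans, from 88.1 ± 3.24 to 111 ± 7.46 CPM (log2 fold change 0.33, SE 0.04, adjusted p = 0.00211). Over all listed relatives, signalling genes, ligands and sialic acid enzymes together, 21 of 81 tested genes passed, 17 higher and 4 lower. That was 25.9% against 7.53% of all genes, and calls in genes that share sequence are not fully separate results.

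The genes most like *Trem1* over the 8 libraries, of 10906 genes compared, were *Rpl36-ps12* (Pearson r = 0.985 of log2 CPM), *Stimate* (0.962) and *2610021A01Rik* (0.95). Those most like *Trem2* were *Clic4* (0.984), *Atp6v1c1* (0.979) and *C030006K11Rik* (0.971). These are descriptions over 8 libraries that share mice and treatment, and their adjusted p for bilirubin against vehicle was 0.0925 to 0.371.

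Several of these receptors are also known in neutrophils, monocytes, dendritic cells and osteoclasts. Of 12 neutrophil markers 5 were tested and 1 rose (*S100a8*), with a summed level of 167 to 192 CPM with vehicle and 192 to 221 CPM with bilirubin, most of it *Mmp8* and *Csf3r*, and *Ly6g*, *Camp* and *Retnlg* had at most 3 counts in any library. Of 7 osteoclast markers 5 were tested and 3 rose (*Acp5*, *Ctsk* and *Dcstamp*), from a sum of 78.4 to 96.4 CPM to one of 113 to 158 CPM, with *Calcr* and *Oscar* at most 3 counts. The sums were 2.87 to 3.74 and 2.21 to 5.01 CPM for 5 monocyte markers and 173 to 177 and 154 to 200 CPM for 7 dendritic cell markers, of which *Flt3*, *Xcr1* and *Clec9a* had at most 3 counts. Most of the dendritic cell sum was *Irf8* and *Bst2*. Markers of mast cells, T and NK cells, B cells, erythroid cells and stroma summed to at most 7.38 CPM in every library, and of these *Ighm* fell. The part of other cell types in the receptor changes was not tested.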

How the data were processed

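RNA of 8 cultures, 1 with vehicle and 1 with bilirubin from each of 4 mice, was sequenced by the authors. Per their methods and processing notes, reads were trimmed with Trim Galore 0.6.7 and Cutadapt 3.4, aligned with STAR 2.7.9a to GRCm39 and quantified with Salmon 1.10.1. The authors deposited estimated counts (expected counts) per gene without scaling for depth or length, of which 88.45% of values were whole, and estimated counts, TPM and effective lengths per transcript for each library. Libraries were not described as strand-specific in the sources used here.

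After rounding, the estimated counts were analysed with edgeR 4.0.16 in R 4.3.3 (TMM scaling, filterByExpr with a minimum count of 10 and a minimum total of 15, mouse and treatment as model terms, quasi-likelihood test, Benjamini-Hochberg adjustment over 13722 genes). The mouse was kept in the model because both cultures came from 1 animal and the study's methods use it. Deviations from the group means correlated by 0.108, 0.134, 0.108 and -0.005 between the cultures of mice 1 to 4 (mean 0.086), and by -0.028 on average between different mice. Changes in each mouse are differences of log2 CPM with a prior count of 2. Gene TPM is the sum of the deposited TPM of its transcripts, and the deposited transcript counts added up to the gene table (largest difference 0.0).

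Alternatives were no block for mouse, DESeq2 1.42.0, limma 3.58.1 (voom and limma-trend), DESeq2's size factors, library size alone, no filter, a CPM above 1 in 4 libraries, leaving out each mouse, and a transcript length offset. Ratios of 2 levels were compared by exact two-sided permutation of signs within mice. Coding sequence and gene positions were read from GENCODE vM39 on GRCm39. The membrane segment was taken as the window of 21 codons with the highest hydropathy, after the first 18 codons, and ITAMs and ITIMs were searched after it. The procedure was tested on simulated data.

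The members and gene lists were chosen with earlier results of these data known. Named were all members, at most 6 genes that passed per list, and the partners, adaptors and phosphatases given with their values whether or not they passed. For *Trem1* and *Trem2* the 3 most correlated genes whose mean log2 CPM was 1 or more were added. Markers were read from lists for 10 cell types. The results of some listed genes are not reported here.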

Additional observations from a re-analysis of the deposited data

Results flagged for a closer look

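One value stood apart from its group. The *Cd300lf* level in the bilirubin culture of mouse 1 was 21.9 CPM, whereas the other bilirubin cultures were at 14.6, 15 and 13.7 CPM, so that the gap to its nearest neighbour took up 0.845 of the group's range. In all, 30 sets of 4 values were examined, and chance flags about 1 in 20 of them.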

How the results depend on the processing

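The number of genes that passed was 1033, and it was 686 without the replicate block for mouse, 1692 with no filter, 579 with an offset for transcript length and 377 to 1910 when 1 mouse was left out (1910 without mouse 1). Library size alone gave 48.7% higher calls against 59.6%, with a median shift of -0.03 on the log2 scale. Of the 10 receptor genes 4 passed, against 3 without the block, 7 with no filter, 2 with the length offset, and 1 to 5 when 1 mouse was left out (5 without mouse 1, 2 without mouse 2, and only *Pilra* without mouse 3 or mouse 4). Of the 81 related genes 21 passed, against 32 with no filter and 16 to 33 with 1 mouse left out (33 without mouse 1). Besides the losses given above, *Cd300lb* was lost without mouse 3 (adjusted p = 0.109) or mouse 4 (0.11) and *Sirpb1c* without the block (0.0545). *Inpp5d* passed with library size alone (0.0417), with no filter (0.0465) and without mouse 1 (0.0162). Signs turned for *Siglec1* (log2 fold change 0.17 without the block, 0.064 with limma voom, and -0.439 to 0.259 with 1 mouse left out, positive without mouse 2 or mouse 4), *Cd300ld5* (-1.28 to 0.666 with 1 mouse left out, positive without mouse 2), *Hcst* (-0.053 to 0.02, positive without mouse 1) and *Ptpn11* (-0.022 with the length offset), none of which had passed. The cause was not tested. Over the 34 named genes and 13 alternatives, 400 values kept their direction and their side of the threshold, 26 lost and 9 gained the call, and 7 changed sign. Fewer samples were in each fit that left out a mouse. Low counts limit *Pilrb1*, *Pilrb2*, *Siglece* and *Trem3*.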
